A study of Mus musculus with 2 samples.

Results

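The genes described are those of antigen presentation by the major histocompatibility complex (MHC): 4 of class II (H2-Aa, H2-Ab1, H2-Eb1 and Cd74) and 6 of class I (H2-K1, H2-D1, B2m, Tap1, Psmb8 and Psmb9). They were taken by name, through the RefSeq accession of every noncontrol probe. The rule uses no measured value, but the set was proposed with earlier results of these data known. They are 10 of the 20658 genes that could be named on the array, and 12 probes printed as 31 spots represent them, among 55674 probes and 59305 noncontrol spots. The samples were cut portions of ovary from 2-week-old mice, kept in culture for 3 days with ligands of the tachykinin receptors (TKRs), which bind neuropeptides such as substance P. One group received TKR agonists, and the other received TKR antagonists. The agonists were [Sar9, Met(O2)11]-SP for TACR1, GR-64349 for TACR2 and a succinylated fragment analogue of substance P for TACR3. The antagonists were directed at the same receptors: an antagonist of TACR1 not named here, GR-94800 for TACR2 and SB218795 for TACR3. Each ligand was given at 1 μM. Total RNA of each group was hybridised to 1 single-colour Agilent mouse array. By the paper's culture method, ovaries were cut lengthwise into 2 symmetrical pieces so that differences between ovaries would add less error. Whether pieces of the same ovaries went to both groups is not given in the sources used here. The number of ovaries behind each RNA is not given there either, and an untreated ovary was not analysed here. Neither group was replicated and nothing was tested, so that every difference below compares these 2 arrays and not the treatments, with no check against the spread between ovaries.

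MHC class I molecules, a heavy chain (H2-K1 or H2-D1) bound to beta-2 microglobulin (B2m), are carried by nearly all nucleated cells and display peptides made inside the cell. The proteasome cuts these peptides, with Psmb8 and Psmb9 as its immune subunits, and the transporter of which Tap1 is a subunit carries them into the endoplasmic reticulum. MHC class II molecules, an alpha chain (H2-Aa) with a beta chain (H2-Ab1), or the beta chain H2-Eb1 with its own alpha partner, display peptides taken up from outside and are found mainly on macrophages, dendritic cells and B cells, all of which can reside in the ovary. Cd74, the invariant chain, holds the class II groove until it is loaded. Both sets of genes are inducible by interferon gamma, class II through the coactivator Ciita and class I through its relative Nlrc5.

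The stretches upstream of these genes are shown because both classes are known to share a promoter module whose order of boxes can be followed by eye. RefSeq (GRCm38) promoter windows, from 250 bases before to 50 bases after the start, were matched by symbol and were searched for 8 of the 10 genes; H2-Ab1 and Cd74 are named only, and Psmb8, which held none of the motifs, is searched but not shown. Each line gives the 180 bases before the start, 5′ to 3′ on the gene's own strand, and for the divergent pair Psmb9 and Tap1 the whole 225 bases between the starts on the strand of Tap1. Capitals mark ATTGG (the core of the Y box bound by NF-Y), TGACG (the core of the X2 box or cyclic AMP response element), GAANNGAAA (a pair of interferon regulatory factor half-sites) and GGGNNTTCC (an NF-kB site), each searched on both strands. The motifs were chosen after the windows were seen.
H2-Aa, chr17:34287824-34288003, minus strand: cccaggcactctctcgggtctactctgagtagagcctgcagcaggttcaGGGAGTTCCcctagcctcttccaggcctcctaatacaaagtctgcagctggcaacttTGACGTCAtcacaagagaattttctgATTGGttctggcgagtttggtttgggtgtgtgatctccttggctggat
H2-Eb1, chr17:34305687-34305866, plus strand: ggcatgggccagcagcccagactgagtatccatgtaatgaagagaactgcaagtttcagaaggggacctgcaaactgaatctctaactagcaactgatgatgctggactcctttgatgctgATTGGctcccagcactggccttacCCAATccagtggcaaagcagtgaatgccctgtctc
H2-K1, chr17:34000348-34000527, minus strand: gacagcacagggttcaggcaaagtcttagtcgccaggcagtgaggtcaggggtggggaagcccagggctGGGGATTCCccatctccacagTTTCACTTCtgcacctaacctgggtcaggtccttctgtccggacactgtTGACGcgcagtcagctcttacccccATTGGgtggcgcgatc
H2-D1, chr17:35262914-35263093, plus strand: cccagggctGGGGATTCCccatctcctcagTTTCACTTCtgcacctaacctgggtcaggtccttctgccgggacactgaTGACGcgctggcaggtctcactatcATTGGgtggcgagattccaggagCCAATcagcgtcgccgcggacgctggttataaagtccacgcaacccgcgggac
B2m, chr2:122147507-122147686, plus strand: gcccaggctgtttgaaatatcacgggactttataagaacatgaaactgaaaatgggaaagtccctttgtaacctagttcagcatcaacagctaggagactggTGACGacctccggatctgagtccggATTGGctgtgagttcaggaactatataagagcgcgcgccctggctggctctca
Psmb9 to Tap1, chr17:34187331-34187555, plus strand: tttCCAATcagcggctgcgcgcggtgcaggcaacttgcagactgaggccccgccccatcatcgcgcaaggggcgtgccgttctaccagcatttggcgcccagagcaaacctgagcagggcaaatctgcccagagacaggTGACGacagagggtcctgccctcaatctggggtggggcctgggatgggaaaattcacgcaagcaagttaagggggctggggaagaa

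ATTGG was found in 7 of the 8 windows, against 37.4% of all 32851 RefSeq mouse windows of the same length. TGACG was found in 6 of 8, against 20.8% of all windows. GGGNNTTCC was found in H2-Aa, H2-K1 and H2-D1, against 5.82% of all windows, and GAANNGAAA in H2-K1 and H2-D1, against 7.52%. The stretch shown for B2m holds GAAACTGAAA in lower case, a pair of full half-sites that GAANNGAAA does not match. The count for GAANNGAAA therefore does not show that B2m lacks an interferon regulatory factor site. In both class I heavy chain genes the 4 motifs followed each other in the order NF-kB, interferon regulatory factor, X2 and Y. In H2-D1 they began 171, 150, 101 and 76 bases before the start, and in H2-K1 they began 111, 90, 41 and 16 bases before the more upstream of its 2 annotated starts. The step from the X2 core to the Y core was 25 bases in H2-K1, H2-D1 and B2m and 26 bases in the class II gene H2-Aa. The window of H2-Eb1 held ATTGG on both strands and none of the other 3 motifs, and that of Psmb8 held none of the 4. Psmb9 and Tap1 are transcribed away from each other, and their windows shared 275 of 300 bases, so that their motifs are the same letters counted from either start. A match is a description of these letters and does not show that a factor was bound.

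All 12 probes were well above background on both arrays at every spot, and none was saturated. Over the whole array 65.4% of the noncontrol spots with agonists and 61.6% with antagonists were well above background. The signals are the image software's processed signals, in arbitrary units, and 1 unit of the agonist array is not 1 unit of the antagonist array, whose 75th percentile was 568.7 against 672.4. Each log2 ratio below is therefore the difference, agonists minus antagonists, of log2 signals that had the 75th percentile of their own array subtracted. The error given is the software's own error of a spot, about 10% of the signal on each array, which comes to about 0.20 for most log2 ratios, or, for the probes of H2-K1 and Tap1 printed 10 times, the SD between spots. Neither error covers the ovaries, the culture or the labelling, and the number of arrays limits the precision. The error of a difference between genes combines the software's errors of the ratios, also for H2-K1 (0.20) and Tap1 (0.22). The 15258 genes well above background on both arrays had a median log2 ratio of -0.10 with an SD over genes of 0.48, and the middle 50% of them lay between -0.27 and 0.15.

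Of the 10 genes, 8 had a log2 ratio above 0, against 37.7% of all genes. Cd74 alone was at least 2-fold higher with agonists, against 4.01% of all genes, and none was at least 2-fold lower, against 0.577%. The median of the 10 was 0.28. The class II genes had a median of 0.53, or 1.44-fold, with 4 of 4 above 0, and the class I genes a median of 0.15, or 1.11-fold, with 4 of 6 above 0. The class medians thus differed by 0.38, and the genes overlapped, since H2-D1 and Psmb8 of class I lay above H2-Aa and H2-Ab1 of class II.

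**Figure D1:**
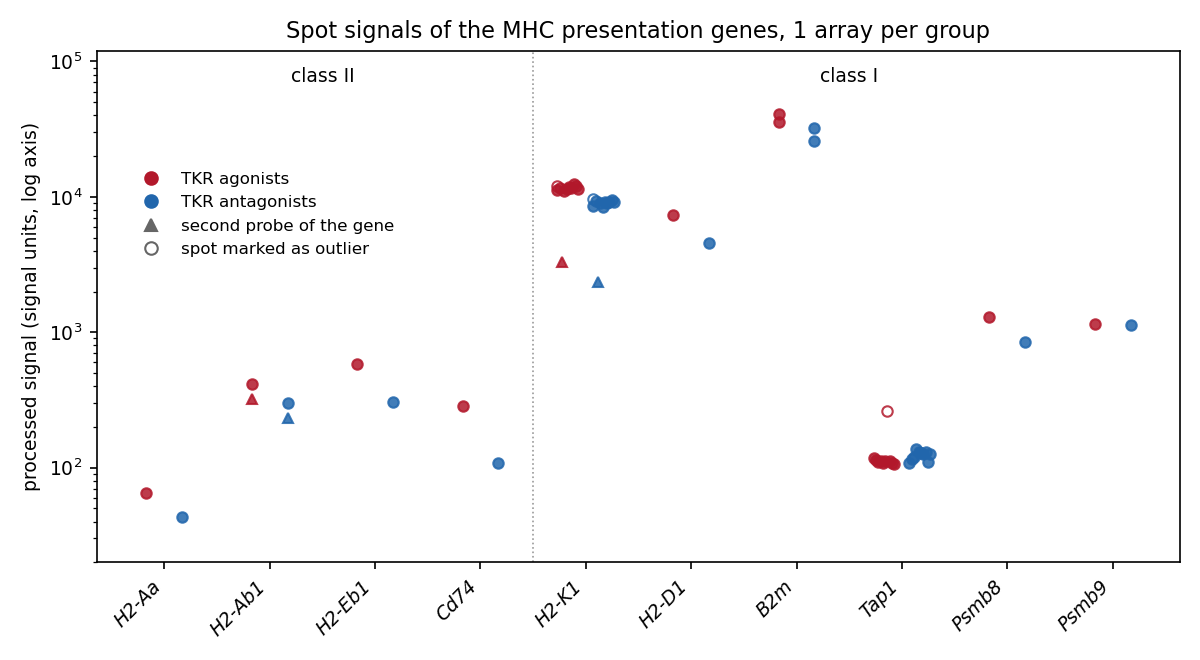
Processed signal of each spot on a log axis for the 10 genes, before scaling, with 1 array per group (red, TKR agonists; blue, TKR antagonists). The red points lie above the blue ones for every gene except Psmb9, where 1154 and 1141 nearly coincide, and Tap1, where the kept agonist spots end at 117.2 and the antagonist spots reach 136.7; levels of different probes are not comparable.

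Among the class II genes, Cd74 (NM_001042605) gave a signal of 283.5 ± 28.6 with agonists and 107.5 ± 11.5 with antagonists (software error, 1 spot each). Its log2 ratio was 1.16 ± 0.21, a 2.23-fold difference, and 460 of the 15258 genes, or 3.01%, had a ratio at least as high. H2-Eb1 (NM_010382) gave 584.9 with agonists and 304.1 with antagonists, a log2 ratio of 0.70 ± 0.21 or 1.63-fold. These were the highest ratios of the 10 genes, and Cd74 exceeded H2-Eb1 by 0.46 with an error of the difference of 0.30. H2-Aa (NM_010378), the alpha chain and the gene with the largest spot error of the 4, gave 65 and 43.1, a log2 ratio of 0.35 ± 0.27. H2-Ab1 (NM_207105), which encodes the beta chain that pairs with H2-Aa, was measured by 2 probes. The brighter probe gave 415.7 and 302.8, a log2 ratio of 0.22 ± 0.21, and the other gave 323.7 and 232.1, a ratio of 0.24 ± 0.21. The 2 probes of H2-Ab1 thus differed by 0.02, far less than the error of either. The partners H2-Aa and H2-Ab1 differed by 0.13 with an error of 0.34. H2-Eb1 lay above H2-Ab1 by 0.49 with an error of 0.29, and Cd74 lay above H2-Ab1 by 0.94 with an error of 0.30, so that the 4 genes did not share 1 ratio beyond the spot error.

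Among the class I genes, H2-D1 (NM_010380) gave 7398 with agonists and 4548 with antagonists, a log2 ratio of 0.46 ± 0.20 or 1.38-fold. H2-K1 (NM_001001892) was printed 10 times, and 1 spot on each array was marked as an outlier and removed. The kept spots ran from 10986 through a median of 11539 to 12376 with agonists, and from 8349 through 9091 to 9451 with antagonists, without overlap before scaling. After scaling, the log2 ratio of H2-K1 was 0.13 with an SD of 0.05 over spots (range 0.05 to 0.21), and 9 of 9 spots kept on both arrays were above 0. A second probe of H2-K1 gave 3327 and 2333, a ratio of 0.27 ± 0.20. The heavy chains H2-D1 and H2-K1 differed by 0.33 with an error of 0.29. B2m (NM_009735), the light chain of both, was printed as 2 spots, which gave 35814 and 41121 with agonists and 25789 and 32110 with antagonists. Its log2 ratio was 0.17 ± 0.20, with 0.12 and 0.23 at the single spots, and it lay within the error of the ratio of H2-K1. The heavy chain genes and the related H2-Q and H2-T genes are close in sequence, the probe sequences were not analysed here, and how far these probes share signal was not tested.

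Tap1 (NM_013683), a subunit of the peptide transporter, had the lowest ratio. Of its 10 spots, 9 were kept with agonists and ran from 106.9 through a median of 111.4 to 117.2; the remaining spot, marked as an outlier, read 260.4. With antagonists the 10 spots ran from 108.6 through 126.3 to 136.7, so that the spots of the arrays overlapped before scaling. The log2 ratio was -0.39 with an SD of 0.14 over spots (range -0.53 to -0.13), below 0 in 9 of 9 spots and 1.31-fold lower. This SD was larger than the median SD of 0.07 over the 284 probes printed at 10 spots and well above background at all of them. Of all genes, 12.6% were as low or lower.

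Psmb8 (NM_010724), an immune subunit of the proteasome, gave 1302 with agonists and 851.2 with antagonists, a log2 ratio of 0.37 ± 0.20. Psmb9 (NM_013585), another immune subunit, gave 1154 and 1141, a ratio of -0.22 ± 0.20. Psmb8 exceeded Psmb9 by 0.60 with an error of 0.29, and it exceeded Tap1 by 0.76 with an error of 0.30. Psmb9 and Tap1, the divergent pair whose shared promoter is shown above, were the 2 genes below 0, and their ratios differed by 0.16 with an error of 0.30. The sign of Psmb9 depended on the scaling, since it was 0.02 when the arrays were left unscaled and 0.05 when they were scaled to the spike-in controls. In the RefSeq annotation Psmb9, Tap1 and Psmb8 are direct neighbours, as are H2-Ab1, H2-Aa and H2-Eb1, with Tap2 and H2-Ob between the groups.

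**Figure D2:**
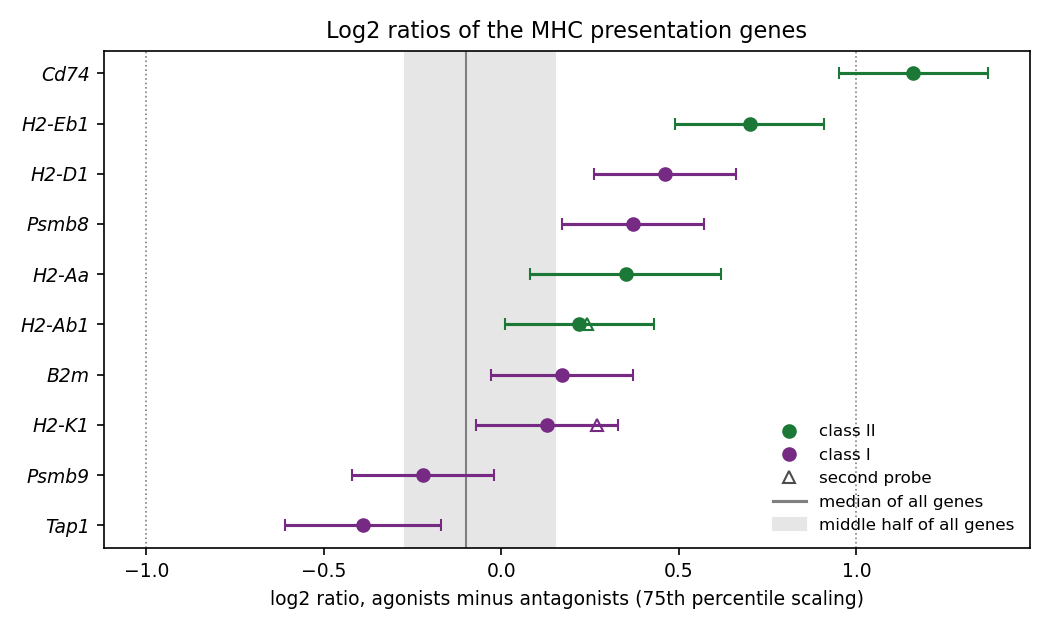
Log2 ratio of each gene, agonists minus antagonists after scaling to the 75th percentile, in falling order, with bars for the software's error of the ratio (1 array per group). The grey line and band mark the median (-0.10) and middle 50% (-0.27 to 0.15) of 15258 genes, and dotted lines mark a 2-fold difference; Cd74 at 1.16 lies beyond the upper one and Tap1 at -0.39 below the band.

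In the order of the ratios, from Cd74, H2-Eb1, H2-D1, Psmb8, H2-Aa, H2-Ab1, B2m and H2-K1 down to Psmb9 and Tap1, neighbours differed by more than their spot error at 2 places only. One was the step of 0.46 from Cd74 to H2-Eb1, and the other the step of 0.35 from H2-K1 to Psmb9, whose error was 0.28.

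The immune subunits were next set beside the standard subunits whose places they take in the proteasome. Psmb8 exceeded its counterpart Psmb5, at -0.12, by 0.49 with an error of 0.29. Psmb9 and its counterpart Psmb6, at -0.28, differed by 0.06. Psmb10, at -0.04, and its counterpart Psmb7, at -0.32, differed by 0.28 with an error of 0.29. Of the immune subunits only Psmb8 therefore differed from its counterpart by more than the spot error. All 7 standard beta subunits measured had ratios below 0, from -0.36 for Psmb3 to -0.12 for Psmb5, with a median of -0.28, which became -0.01 on arrays scaled to the spike-in controls. Psmb10 and both subunits of the PA28 activator, Psme1 at 0.17 and Psme2 at -0.20, had a median of -0.04, and none of the 3 was past 2-fold.

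The genes that assist class II presentation were split. Of 9 listed genes, 7 passed the background limit on both arrays; their median was -0.10, 2 were above 0 and 5 below. Ctss, the cathepsin that degrades the invariant chain, gave 2896 with agonists and 811.5 with antagonists, a log2 ratio of 1.59 ± 0.20. H2-DMb1, the beta chain of the molecule that exchanges Cd74 fragments for peptides, gave 133.4 and 40.7, a ratio of 1.47 ± 0.26. Both were past 2-fold higher, as Cd74 was. H2-DMa, the alpha chain of the same molecule, gave 83.7 and 133.4, a ratio of -0.91 ± 0.22, which is 2.38 below its partner with an error of 0.34. The class II coactivator Ciita gave 30.0 and 27.2, a ratio of -0.10 ± 0.36 near the background, and was thus at the median of all genes. H2-Oa at -0.02, H2-Ob at -0.24 and Ifi30, a thiol reductase of the endosome, at -0.33 were not past 2-fold. H2-Eb2 was well above background with agonists alone and H2-DMb2 on neither array.

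The genes that load class I were mostly near the median of all genes. All 8 listed passed the background limit on both arrays; their median was -0.02, 4 were above 0 and 4 below, and none was past 2-fold. Nlrc5, the class I coactivator, had the highest ratio of them, with signals of 112.8 and 48.3 and a log2 ratio of 0.98 ± 0.25; a second, dimmer probe of it was not well above background on either array. Tapbpl, a peptide editor, followed at 0.37. Tap2, the partner of Tap1 in the transporter, gave 4831 and 4365, a ratio of -0.10, and lay 0.29 above Tap1 with an error of 0.30. The remaining genes, the chaperones Calr and Canx, Pdia3, the tapasin gene Tapbp and the peptidase Erap1, lay between -0.23 and 0.09.

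The nonclassical and related class I genes, 16 of 19 of which could be named, had a median of 0.33 over the 13 well above background on both arrays, with 9 above 0, 4 below and none past 2-fold. H2-Q7 at 0.55, H2-Q10 at 0.48, H2-Q2 at 0.44 and H2-Q6 at 0.42 lay near H2-D1, and H2-T23 lay at 0.33. Hfe, an iron regulator with a class I fold, at 0.70 and Fcgrt, the neonatal Fc receptor, at 0.48 were also above 0, and both are bound by B2m. H2-Q4 at -0.12, H2-T24 at -0.26, Mr1 at -0.08 and Cd1d1 at -0.04 were below it.

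Interferon gamma itself was not measurable here: Ifng was well above background on neither array. Of the 15 genes listed, which are Ifng, its receptors, mediators and MHC regulators, 13 passed the background limit on both arrays; their median was 0.00, 7 were at or above 0 and 6 below, and none was past 2-fold. The receptors Ifngr1 and Ifngr2 lay at 0.03 and 0.15, and the mediator Irf1 at -0.05. Irf8, a factor of the myeloid lineage, had the highest ratio of the list at 0.67, with signals of 1005 and 533.8, and Rfxank, a subunit of the complex that binds the X box, followed at 0.45. Socs1, which damps interferon signalling, lay at -0.26. The costimulation genes had a median of 0.01 over 4 of 5, from -0.39 for Cd274 to 0.09 for Cd40, and Cd86 was well above background with agonists alone, at least 1.26-fold higher.

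**Figure D3:**
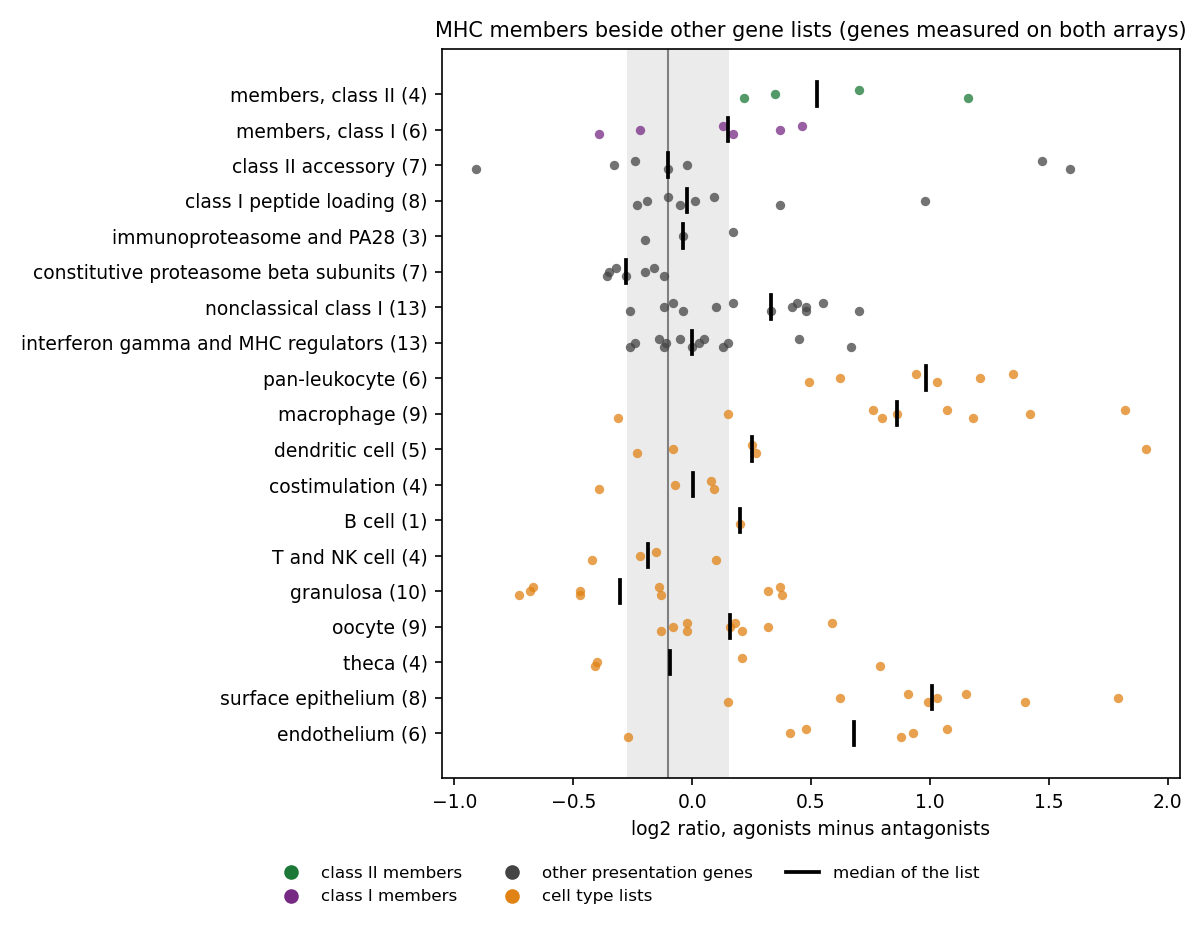
Log2 ratio, agonists minus antagonists, of each gene well above background on both arrays (points; number per list in brackets) with the median of each list (black bar), for the MHC genes, the other presentation genes and the cell type lists. The grey line and band mark the median and middle 50% of all genes; the leukocyte, macrophage, surface epithelium and endothelium lists have medians of 0.98, 0.86, 1.01 and 0.68, and the class II genes 0.53.

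In whole tissue, fewer cells of a type and less RNA per cell cannot be told apart, and class II genes are carried by a small set of cells. Markers of leukocytes stood higher with agonists beside the class II genes. Of 7 pan-leukocyte markers, 6 were well above background on both arrays, all above 0, from 0.49 for Rac2 to 1.35 for Lcp1, with a median of 0.98. Ptprc, which encodes CD45, was well above background with agonists alone, and its plain ratio to the dim antagonist signal was 1.81-fold. The summed scaled signal of this list was 4.04 with agonists and 1.92 with antagonists. Of 12 macrophage markers, 9 were well above background on both arrays, 8 of them above 0, from -0.31 for Itgam to 1.82 for Mrc1, with a median of 0.86. Their summed scaled signal, which bright probes dominate, was 35.2 against 28, a large part of it from 1 probe of Itgam with signals of 6129 and 6445, whose other probes had ratios of 0.64 and -0.39. Fcgr1 was well above background with agonists alone, and its plain ratio to the dim antagonist signal was 1.52-fold. Cd163 was so on neither array, and Cd68 could not be named among the probes. The part of leukocytes and macrophages in the result was not tested.

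Markers of dendritic cells and B cells, the other cells named above as carriers of class II, did not move as 1 group. Of 9 dendritic cell markers, 5 passed the background limit on both arrays, with a median of 0.25, from -0.23 for Siglech to 1.91 for Itgax. The others, Flt3, Xcr1, Clec9a and Cd209a, were well above background on neither array. The summed scaled signal of this list was 202.5 with agonists and 237.3 with antagonists, nearly all of it from 1 probe of Siglech. Of 5 B cell markers only Ms4a1, at 0.20, was well above background on both arrays; Cd79a and Cd79b were so with agonists alone and Pax5 on neither. T and NK cells are not among the carriers of class II named above, and their markers are given for comparison only. Of 7 T and NK cell markers, 4 had a median of -0.19, and Cd3d, Cd8a and Ncr1 were well above background on neither array.

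The tissue was checked against its own cells too. All 10 granulosa markers and all 9 oocyte markers were well above background on both arrays, so that the ovarian label was borne by its defining markers. Granulosa markers had a median of -0.30, from -0.73 for Fshr to 0.38 for Amhr2, oocyte markers one of 0.16, from -0.13 for Zp3 to 0.59 for Figla, and the 4 measured theca markers one of -0.10. Surface epithelium markers had a median of 1.01, with 8 of 8 above 0 and 4 past 2-fold higher, and endothelium markers one of 0.68, with 5 of 6 above 0. The endothelium gene below 0 was Kdr, at -0.27 by its brightest probe, and its other probe, printed 10 times, gave 0.38. The summed scaled signal of the epithelial list was 37.5 with agonists and 17.7 with antagonists, and that of the endothelial list 68.6 and 58. The higher ratios with agonists were thus not confined to leukocyte markers, and the part of these cell types in the MHC ratios was not tested.

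The ratios were recomputed under other ways of scaling, background correction and averaging. The ratios of H2-Aa, H2-Ab1, H2-Eb1, Cd74, H2-K1, H2-D1, B2m and Psmb8 were above 0 in 11 of 11 alternatives each, and that of Tap1 was below 0 in 11 of 11, from -0.44 to -0.11. The 11 include other averages over spots and probes and retained outliers. For genes with 1 probe at 1 spot (H2-Aa, H2-Eb1, Cd74, H2-D1, Psmb8 and Psmb9) these return the main value by construction and are no check. The same holds for B2m, with 1 probe at 2 spots and no outlier. For H2-Ab1, with 1 spot per probe and no outlier, only the average over probes could move the value. Cd74 ranged from 0.81, when the background was corrected by normexp, to 1.43, when the arrays were scaled to the spike-in controls. Under normexp Cd74 fell short of 2-fold, and the class II median exceeded the class I median by 0.13 instead of 0.38. That difference was 0.24 after quantile normalization and 0.27 after loess. Scaling by 1 factor per array cannot change it. Relative to the median of all genes, which moved from -0.15 to 0.18 with the scaling, the class II median stood 0.62 higher and the class I median 0.25 higher. These values were 0.55 and 0.31 after quantile normalization, 0.57 and 0.30 after loess, and 0.43 and 0.29 under normexp. Of the list medians below 0, 5 turned above 0 on the spike-in controls: that of the class II accessory genes was then 0.18, that of the class I loading genes 0.26, that of the immunoproteasome and PA28 genes 0.24, that of the T and NK cell markers 0.09 and that of the theca markers 0.18.

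**Figure D4:**
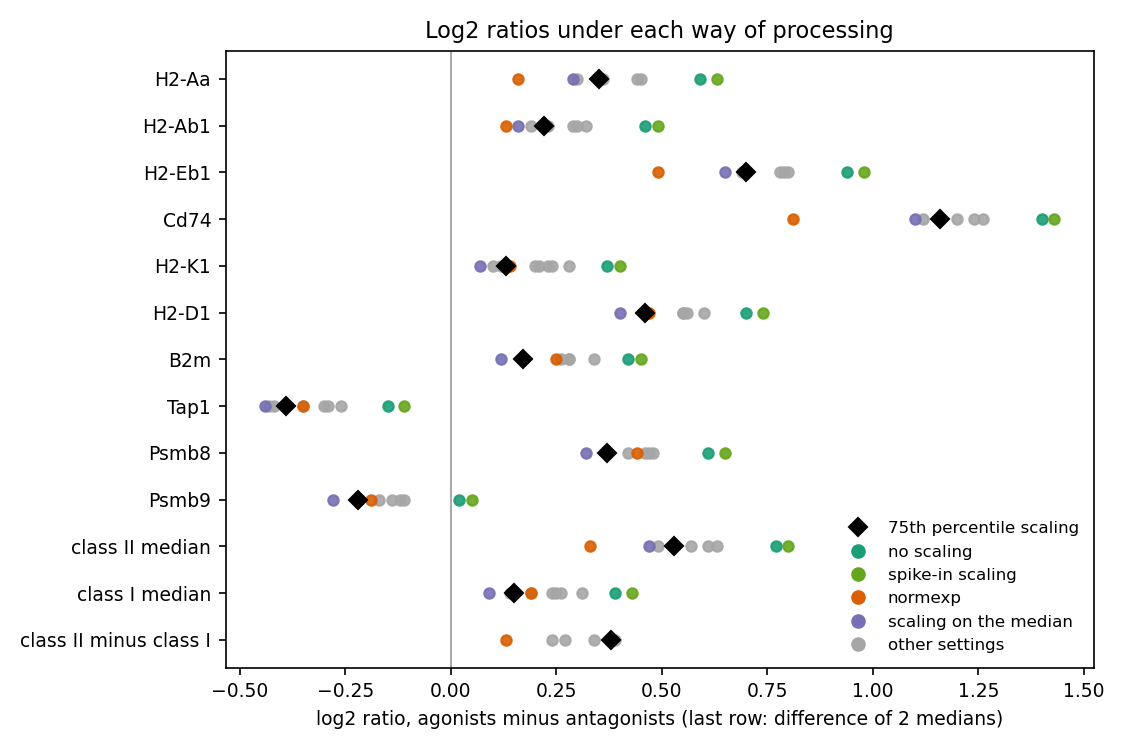
Log2 ratio of each gene, the class medians and their difference under 75th percentile scaling (black diamonds) and each alternative (circles). Points to the right of 0 are higher with agonists; Psmb9 alone crosses 0, at 0.02 left unscaled and at 0.05 scaled to the spike-in controls, and the difference of the class medians falls to 0.13 under normexp.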

How the data were processed

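Cy3-labelled cRNA from 1 total RNA per group was hybridised to Agilent arrays (design 028005, probes placed on mm9), and both arrays lay on 1 slide and were scanned together. The intensity values analysed here are the deposited background-subtracted processed signals of Agilent Feature Extraction 10.10.1.1, as the file headers give them. A value table was also deposited by the authors. Against the scanner values it is the processed signal times a constant per array (median ratio 1.99 for agonists, 2.19 for antagonists). Its log2 served as an alternative. The files hold no gene names, so probes were named through their RefSeq accession in a RefSeq table (GRCm38): 27230 of 55674 probes had 1 symbol and 28444 had none and were not used by name.

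From the processed signal, outlier spots were removed (165 and 159 of 59305), spots of a probe were averaged, log2 was taken and the 75th percentile of the array subtracted. A probe counted as well above background if over 50% of its spots were. A gene was represented by its brightest probe among those well above background on at least 1 array, and list medians were taken over genes so measured on both. For a gene well above background on 1 array alone, a fold is given against the lowest signal well above background (18.1 and 19.9), as a lower bound. Where the dim signal itself was above that limit, the plain ratio is given. No test was run, since each group has 1 array. As alternatives, the arrays were left unscaled or scaled to their median, to the probes measured on both, or to 8 spike-in probes, and quantile and loess normalization were used, as were normexp (offset 50), the authors' values, other averages over spots and probes, retained outliers, other filters and a 4-fold threshold. Python 3.11.15, numpy 2.4.6, pandas 2.3.3, R 4.3.3 and limma 3.58.1 were used, and the steps were tested on simulated data. All genes of the set were named, with every probe; of the presentation lists any gene could be named beside its list's counts, and of the cell type lists the highest, the lowest and those well above background on neither array. Single values of some listed genes are not reported here. The genes and lists were chosen with earlier results of these data known.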

Additional observations from a re-analysis of the deposited data

How the results depend on the processing

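Over the alternatives, 89 of 110 values for single genes moved by less than the spot error, 19 moved further and 2 changed sign, both of Psmb9 (0.02 left unscaled, 0.05 scaled to the spike-in controls). The 89 include values that could not move, among them those from other averages and retained outliers at B2m and at genes with 1 probe at 1 spot. Left unscaled, the class II median was 0.77 and the class I median 0.39, and scaled to the spike-in controls they were 0.80 and 0.43. With normexp, class II minus class I was 0.13, the dendritic cell list's median was -0.10 and 0 genes of the set were at least 2-fold higher, as at a 4-fold threshold. Of all probes, 890 were at least 2-fold higher and 233 lower. These counts became 1499 and 98 on unscaled arrays, 1625 and 88 on arrays scaled to the spike-in controls, 410 and 60 after normexp, 127 and 18 at 4-fold, 3339 and 2333 if dim probes were kept, and 231 and 31 for probes at or above the 75th percentile. The authors' values gave 149 lower. The higher share of these probes was 79.3%, and over the settings for scaling, normalization, background correction and averaging it ran from 73.5% on arrays scaled to their median to 94.9% on those scaled to the spike-in controls. The causes were not tested. No paired analysis was possible because each group has 1 array, and whether both groups held pieces of the same ovaries is not given. Signals near the background limit have larger errors, as that of Ciita with 0.36.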

Other observations

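Some immune marker genes had probes that did not give the same reading, which was noticed after the values were seen. Siglech, a marker of plasmacytoid dendritic cells, gave 135140 and 134302 at one probe and was not well above background on either array at the other, with 6.6 and 5.6. Cd4 gave 6019 and 4736 at one probe and 33.2 and 29.6 at a probe printed 10 times. The 3 probes of Itgam had log2 ratios from -0.39 to 0.64, and the 2 probes of Adgre1, which encodes the macrophage antigen F4/80, ratios of 0.72 and 1.42. Outside the immune markers, the probes of Foxl2 gave 0.32 and -0.37, and those of Kdr -0.27 and 0.38. By contrast, the 2 probes of Laptm5 lay at 1.14 and 1.21 and those of Lcp1 at 1.35 and 1.38. The probes of H2-Ab1 and H2-K1 differed by 0.02 and 0.14.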
